A study of Mus musculus with 32 samples.

Results

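Lipoprotein lipase and its regulators were followed here through 7 genes chosen by name: the lipases *Lpl* and *Lipc*, the inhibitor *Angptl4*, the capillary anchor *Gpihbp1*, the maturation factor *Lmf1* and the receptors *Vldlr* and *Lrp1*. All 7 were present among the 24646 genes measured in each tissue. Liver, epididymal white fat (eWAT), inguinal white fat (iWAT) and brown fat (BAT) came from male *Gpr146*-/- mice, which lack this G protein-coupled receptor in the whole body after CRISPR/Cas9 deletion, and from *Gpr146*+/+ littermates (wild type, WT), both from heterozygous parents. All mice were 20 weeks old, had been fed a high-fat diet (HFD) for 3 months and were fasted overnight before collection, so no chow-fed or fed group is set beside them. RNA of 4 mice per genotype and tissue was read on Affymetrix Mouse Gene 2.1 ST arrays, 1 array per mouse and tissue and 32 in all. The question addressed was whether loss of GPR146 went with altered expression of the genes that handle circulating triglyceride.

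LPL is secreted by adipocytes and muscle cells, folds in the endoplasmic reticulum with the help of LMF1, and is carried by GPIHBP1 across the capillary endothelium to the vessel lumen, where it hydrolyzes the triglyceride of chylomicrons and very low density lipoprotein (VLDL). ANGPTL4, which fasting induces in fat, inactivates LPL, whereas hepatic lipase, encoded by *Lipc*, acts on smaller lipoproteins in the liver. VLDLR and LRP1 bind lipoproteins and their remnants at the cell surface. Much of the control of LPL activity takes place after translation, which arrays of RNA do not measure.

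Values are log2 expression values of the authors, normalized separately for each tissue, so that levels of 1 gene in different tissues are approximate and levels of different genes were not set against each other. The array medians were 3.00 to 3.06 in Liver, 3.13 to 3.18 in eWAT, 3.65 to 3.73 in iWAT and 2.82 to 2.86 in BAT. *Gpr146* itself was lower in all 4 *Gpr146*-/- mice than in all 4 WT mice in each tissue, by 1.16 (BAT) to 1.77 (Liver) on the log2 scale. The labelled tissues carried their markers: the mean of 5 hepatocyte markers was 11.05 to 11.22 in Liver and 1.94 to 3.51 in the fat depots, and the mean of 4 brown adipocyte markers was 7.67 to 8.72 in BAT and 2.30 to 4.22 elsewhere. Some arrays stood apart from their group. In iWAT, 7 lymphocyte markers averaged 7.82 and 7.94 in WT mice 1 and 2 and 7.71 in knockout mouse 2. They averaged 5.50 in knockout mouse 4 and 3.39 to 3.62 in the remaining arrays. In BAT, 5 skeletal muscle markers averaged 6.76, 7.81 and 7.93 in WT mice 2 and 3 and knockout mouse 2, against 3.06 to 4.06 in the others. In eWAT, 7 macrophage markers averaged 9.12 to 9.24 in WT mice and 8.72 in knockout mouse 2, but 5.81, 6.94 and 6.18 in knockout mice 1, 3 and 4.

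In WT mice the 7 genes had distinct tissue patterns. *Lpl* was highest in eWAT (8.96 ± 0.09, SD, n = 4), followed by BAT (8.56 ± 0.08) and iWAT (8.48 ± 0.19), whose ranges overlapped, and was near the array median in Liver (3.11 ± 0.22). *Lipc* showed the opposite distribution, with 7.63 ± 0.09 in Liver and 2.14 to 2.96 on average in the fat depots, below the median of the arrays there. *Angptl4* was similar in iWAT (9.51 ± 0.28) and eWAT (9.45 ± 0.08), whose ranges overlapped, lower in BAT (9.20 ± 0.18) and lowest in Liver (7.54 ± 0.27). *Gpihbp1* followed the same order, with overlapping ranges in iWAT (7.59 ± 0.38) and eWAT (7.32 ± 0.16), then BAT (6.96 ± 0.12) and Liver (4.10 ± 0.15). Relative to the median of each array, however, BAT came first for *Angptl4* and eWAT for *Gpihbp1*, so that only the lower level in Liver held for both genes under each scaling. *Lmf1* varied least, from 6.26 ± 0.23 in BAT and 6.26 ± 0.13 in Liver to 5.93 ± 0.07 in eWAT and 5.72 ± 0.11 in iWAT, with overlap between neighbours in this order except Liver and eWAT. The receptors diverged. *Vldlr* was highest in BAT (7.97 ± 0.29), intermediate in eWAT (6.23 ± 0.24) and iWAT (5.88 ± 0.38), whose ranges overlapped, and at the array median in Liver (2.94 ± 0.14). *Lrp1* was highest in eWAT (9.52 ± 0.02), ahead of Liver (9.21 ± 0.18), iWAT (8.64 ± 0.55) and BAT (8.06 ± 0.11), and the last 3 tissues overlapped with their neighbours in this order. Relative to the median of each array, BAT (5.23) came before iWAT (4.97) for *Lrp1*.

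**Figure D1:**
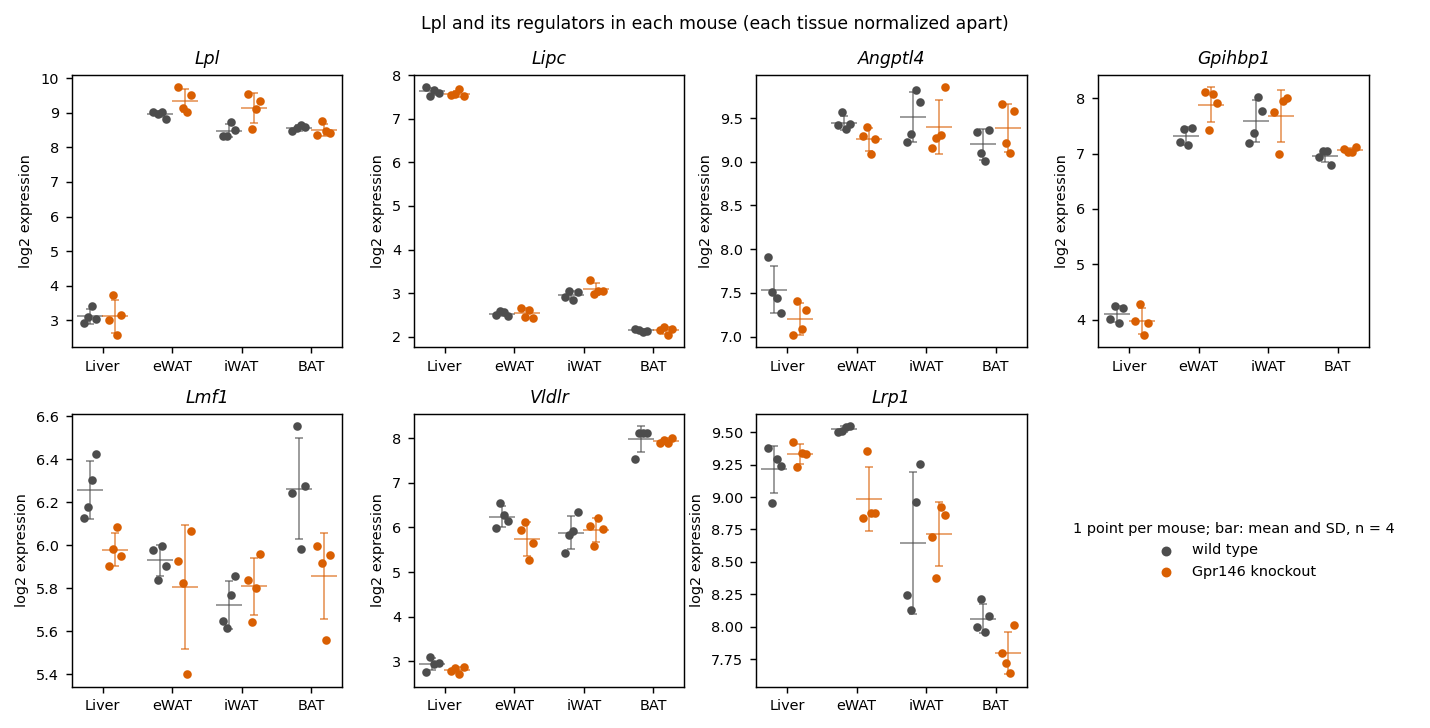
Log2 expression (y axis) of the 7 genes in each mouse by tissue (x axis), with WT in grey, *Gpr146* knockout in orange, and bars for the mean and SD of 4 mice. *Lpl* lies near 9 in fat and near 3 in Liver, *Lipc* the reverse, and in eWAT all 4 knockout values of *Lrp1* lie below the 4 WT values.

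Knockout and WT mice were then compared within each tissue with limma, where a gene passed at a p under 0.05 after Benjamini-Hochberg adjustment over the 24646 genes of the tissue. The calls fell in eWAT, where *Gpihbp1* rose 1.48-fold and *Lrp1* fell 1.45-fold in *Gpr146*-/- mice. These were 2 of 7 genes (1 up, 1 down) in a tissue in which 15.2% of all genes passed. Among the 12323 genes above the median gene of eWAT, fitted alone, 31.1% passed. None of the 7 passed in Liver, iWAT or BAT, where 0.661%, 0% and 0.0284% of all genes did. The deleted gene *Gpr146* passed in Liver and eWAT but not in iWAT (-1.55, limma adjusted p = 0.221) or BAT (-1.16, limma adjusted p = 0.0727). The absence of calls in iWAT and BAT therefore does not show an absence of change. At an unadjusted p under 0.05 the counts were 2 of 7 in Liver (background 13.3%), 4 of 7 in eWAT (29.8%), 1 of 7 in iWAT (15.4%) and 2 of 7 in BAT (12.7%). The median change of the 7 genes was -0.12 in Liver, -0.13 in eWAT, 0.09 in iWAT and -0.04 in BAT, beside 0.010, 0.031, 0.017 and 0.0032 for all genes.

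**Figure D2:**
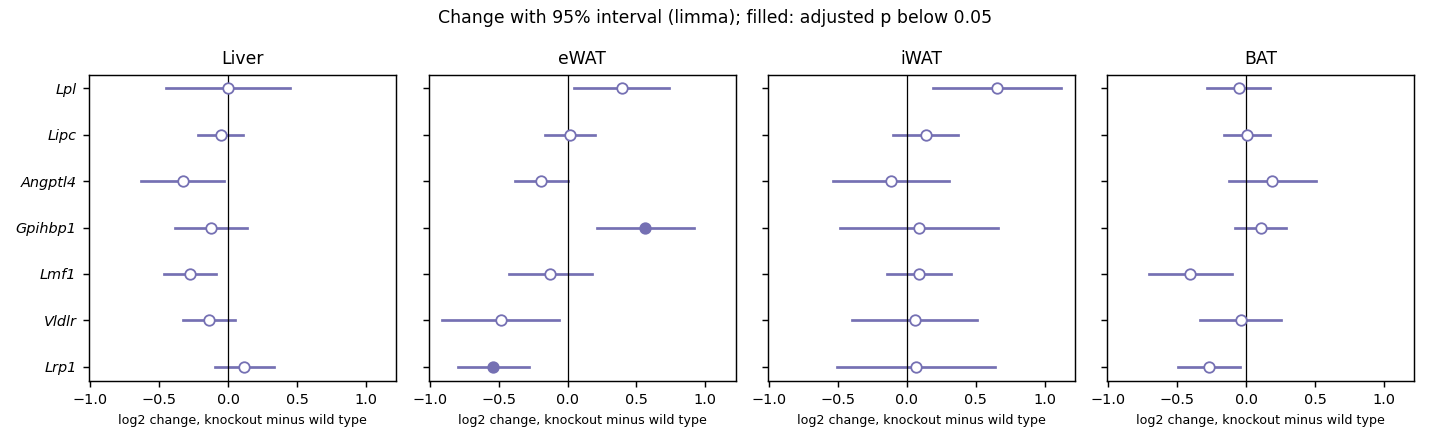
Log2 change (x axis, knockout minus WT) of the 7 genes (y axis) in each tissue, with its 95% interval from limma, n = 4 mice per genotype. Filled points passed an adjusted p of 0.05; these are *Gpihbp1* (0.57) and *Lrp1* (-0.54), both in eWAT.

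*Lpl* in eWAT was 9.02, 8.98, 9.03 and 8.83 in WT mice 1 to 4 and 9.75, 9.14, 9.01 and 9.52 in knockout mice 1 to 4. Knockout mice 1 and 4 were the highest, whereas knockout mouse 3 lay within the WT range. The difference of 0.39 (SE 0.15, 95% interval 0.05 to 0.74) did not pass (limma adjusted p = 0.121; exact permutation test p = 0.0857). It passed after quantile normalization (0.52, adjusted p = 0.0401), with array weights (0.53, adjusted p = 0.0158) and without knockout mouse 3 (0.51, adjusted p = 0.0476), whereas it was 0.26 (adjusted p = 0.226) without knockout mouse 1 and had an adjusted p of up to 0.259 with other mice left out. Of all genes, 15.2% passed after quantile normalization, 21.5% with array weights and 13% without knockout mouse 3. The mean of 5 adipocyte markers was 8.17 to 8.66 in WT mice and 8.91 to 9.29 in knockout mice, and was also highest in knockout mice 1 and 4. Of these markers *Adipoq*, *Plin1*, *Lipe* and *Cfd* rose and *Lep* fell. The part of these markers in the *Lpl* values was not tested, and in bulk tissue fewer cells of a type cannot be told apart from less RNA per cell.

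The largest difference of *Lpl* in these data was in iWAT, where WT mice gave 8.33, 8.34, 8.74 and 8.52 and knockout mice 9.54, 8.54, 9.11 and 9.36. All knockout mice except mouse 2 exceeded every WT mouse. The difference was 0.65 (SE 0.21, 95% interval 0.19 to 1.12), a 1.57-fold higher mean, and did not pass (limma adjusted p = 0.239; exact permutation test p = 0.0571). The lowest *Lpl* values of each genotype were those of the 3 arrays with high lymphocyte markers. Without these arrays (2 WT and 3 knockout mice kept, knockout mouse 4 among them) the difference was 0.71 (adjusted p = 0.160). It was 0.59 with the lymphocyte marker mean as a covariate (adjusted p = 0.104) and 0.85 without knockout mouse 2 alone (adjusted p = 0.0447). In the fit without that mouse, 227 of all 24646 genes passed in iWAT, beside 0 with all arrays. In BAT, *Lpl* was 8.46 to 8.65 in WT mice and 8.36 to 8.77 in knockout mice, a difference of -0.06 (95% interval -0.28 to 0.17). In Liver the values were 2.91 to 3.42 and 2.57 to 3.73 (-0.0047, 95% interval -0.45 to 0.45), at a level near the array median.

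*Lipc*, the hepatic lipase gene, was 7.73, 7.53, 7.66 and 7.59 in the livers of WT mice and 7.54, 7.56, 7.68 and 7.52 in those of knockout mice. The ranges overlapped, and the difference of -0.05 (SE 0.07, 95% interval -0.22 to 0.11, limma adjusted p = 0.820) did not pass. In the fat depots *Lipc* was dim, at 2.04 to 3.31 in single mice, and its differences of 0.01 to 0.14 did not pass.

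*Angptl4* did not pass in any tissue. In Liver it was 7.91, 7.51, 7.45 and 7.28 in WT mice and 7.02, 7.41, 7.09 and 7.30 in knockout mice. WT mouse 1 was the highest, WT mouse 4 lay inside the knockout range, and the difference of -0.33 (SE 0.14, 95% interval -0.63 to -0.03) did not pass (limma adjusted p = 0.322; exact permutation test p = 0.0857). In eWAT, WT mice gave 9.42, 9.56, 9.38 and 9.43 and knockout mice 9.29, 9.40, 9.09 and 9.26. Among knockout mice only mouse 2 exceeded the lowest WT mouse, and the difference of -0.19 (95% interval -0.39 to 0.01) did not pass (limma adjusted p = 0.179) and was -0.0080 after quantile normalization (adjusted p = 0.962). Differences were -0.11 in iWAT (95% interval -0.53 to 0.31) and 0.19 in BAT (95% interval -0.13 to 0.50), where the 3 arrays with high muscle markers had the lowest or second lowest values of their genotypes.

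*Gpihbp1*, whose product is made by capillary endothelial cells, was 7.21, 7.44, 7.15 and 7.47 in the eWAT of WT mice and 8.12, 7.42, 8.07 and 7.92 in that of knockout mice. Knockout mice 1, 3 and 4 exceeded all WT mice, and knockout mouse 2 lay within the WT range. The means were 7.32 ± 0.16 and 7.89 ± 0.32 (SD, n = 4 each), and the rise of 0.57 (SE 0.16, 95% interval 0.22 to 0.92) passed (limma adjusted p = 0.0389; exact permutation test p = 0.0857). The call rests on the full set of arrays: leaving out any 1 of them except knockout mouse 2 gave 0.49 to 0.62 with adjusted p = 0.0681 to 0.102, and leaving out knockout mouse 2 gave 0.72 (adjusted p = 0.00136). The adjusted p was also above 0.05 with the mouse numbers as a replicate block (limma adjusted p = 0.0767).

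The mean of 6 capillary endothelial markers in eWAT was 7.31 to 7.46 in WT mice and 7.58 to 7.97 in knockout mice. All 6 had a higher mean in knockout mice and 1, *Egfl7*, passed (0.91, SE 0.16, adjusted p = 0.0103). Their part in the *Gpihbp1* values was not tested. In Liver, where *Gpihbp1* was dim (3.94 to 4.25 in WT mice, 3.72 to 4.29 in knockout mice, difference -0.12), the same markers averaged 4.64 to 4.79 in WT and 3.85 to 4.51 in knockout mice. All 6 had a lower mean in knockout livers and 3 passed (*Cdh5*, *Kdr* and *Tek*). *Gpihbp1* differed by 0.09 in iWAT (95% interval -0.49 to 0.66), where the endothelial means overlapped. In BAT the difference was 0.10 (95% interval -0.08 to 0.29).

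*Lmf1*, encoding the chaperone needed for active LPL, was 6.13, 6.18, 6.30 and 6.42 in WT livers and 5.91, 5.98, 6.08 and 5.95 in knockout livers. All knockout values lay below all WT values, which was the case for 4.16% of all genes in Liver. The difference of -0.28 (SE 0.08, 95% interval -0.46 to -0.09) did not pass (limma adjusted p = 0.177). The exact permutation test gave p = 0.0286, the smallest that 4 against 4 mice allow, and 0.240 after adjustment over 28 values of 7 genes in 4 tissues. In BAT, *Lmf1* was 6.24, 6.55, 5.98 and 6.28 in WT mice and 6.00, 5.92, 5.56 and 5.95 in knockout mice. Here knockout mouse 1 just exceeded WT mouse 3, and the difference of -0.41 (SE 0.14, 95% interval -0.71 to -0.10) did not pass (limma adjusted p = 0.245). It was -0.42 without the 3 arrays with high muscle markers. The 4 brown adipocyte markers of BAT, none of which passed, averaged 8.41 to 8.72 in WT mice and 7.67 to 8.07 in knockout mice, and their part in this value was not tested. In eWAT and iWAT the differences were -0.13 (95% interval -0.43 to 0.17) and 0.09 (95% interval -0.15 to 0.32).

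*Vldlr* in eWAT was 5.98, 6.54, 6.27 and 6.14 in WT mice and 5.95, 6.13, 5.27 and 5.65 in knockout mice. Knockout mouse 2 lay inside the WT range and the other 3 below it. The difference of -0.49 (SE 0.19, 95% interval -0.91 to -0.06) did not pass (limma adjusted p = 0.117, exact permutation test p = 0.0571), and without knockout mouse 2 it did (-0.61, adjusted p = 0.0346). Without that mouse 22% of all genes passed. The *Vldlr* difference was -0.31 after quantile normalization (adjusted p = 0.224) and -0.33 without knockout mouse 3 (adjusted p = 0.209). In BAT, the tissue with most *Vldlr*, knockout mice gave 7.88 to 8.01 and WT mice 8.12 in 3 cases and 7.53 in mouse 1, a difference of -0.04 (95% interval -0.33 to 0.26). Differences in Liver (-0.14) and iWAT (0.06) were also inside intervals that included 0.

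*Lrp1* in eWAT had the lowest adjusted p of the 7 genes in any tissue. It was 9.50, 9.51, 9.54 and 9.55 in WT mice and 8.84, 9.36, 8.88 and 8.88 in knockout mice. All knockout values lay below all WT values, as they did for 13% of all genes in eWAT, and knockout mouse 2 was closest to WT. Means were 9.52 ± 0.02 and 8.99 ± 0.25 (SD, n = 4 each), a fall of 0.54 on the log2 scale (SE 0.12, 95% interval -0.80 to -0.28; limma adjusted p = 0.0173; exact permutation test p = 0.0286). The adjusted p was 0.0527 without WT mouse 2 and 0.0531 without WT mouse 4. Without knockout mouse 2 the fall was larger (-0.66, adjusted p = 0.000225).

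LRP1 is made by many cells of fat, among them macrophages, fibroblasts and adipocytes. Beside the fall of *Lrp1*, 7 of 7 macrophage markers fell in eWAT, by 1.33 (*Mrc1*) to 3.12 (*Trem2*) on the log2 scale. Of 4 fibroblast and progenitor markers 3 fell (*Pdgfra*, *Dpt* and *Dcn*), and their mean was 8.42 to 8.68 in WT mice and 7.53, 8.45, 7.55 and 7.71 in knockout mice 1 to 4. For *Lrp1*, for the macrophage markers and for the fibroblast markers, knockout mouse 2 was the knockout mouse closest to WT. The part of either cell type in the *Lrp1* values was not tested.

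**Figure D3:**
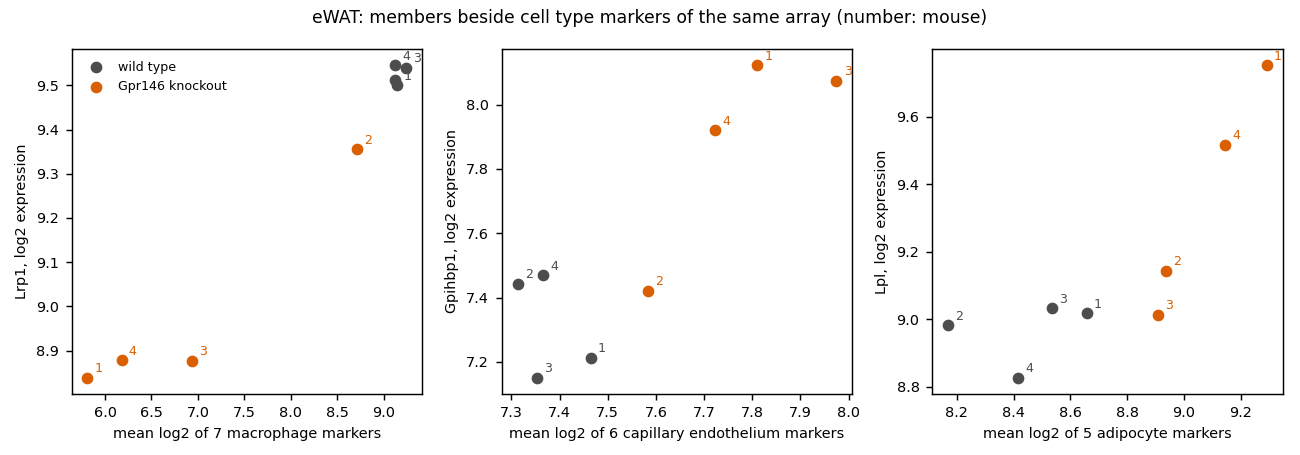
Log2 expression in eWAT of *Lrp1*, *Gpihbp1* and *Lpl* (y axes) against the mean log2 of macrophage, capillary endothelial and adipocyte markers of the same array (x axes), 1 numbered point per mouse, WT in grey and knockout in orange. Knockout mouse 2 has the highest macrophage mean (8.72) and the highest *Lrp1* (9.36) of the knockout mice.

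Outside eWAT, *Lrp1* in BAT was 8.0, 8.21, 7.96 and 8.08 in WT mice and 7.80, 7.72, 7.64 and 8.02 in knockout mice. The groups overlapped through knockout mouse 4, and the difference of -0.27 (SE 0.10, 95% interval -0.49 to -0.04) did not pass (limma adjusted p = 0.301). In Liver it was 8.95 to 9.37 in WT and 9.23 to 9.42 in knockout mice (0.12, 95% interval -0.10 to 0.33). In iWAT it ranged from 8.13 to 9.25 among WT mice alone, where the 2 arrays with high lymphocyte markers were the lowest, and the difference was 0.07 (95% interval -0.51 to 0.64). With the 3 arrays of high lymphocyte markers left out, the iWAT difference was -0.28 (adjusted p = 0.470).

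Whether a change differed between tissues was tested with a tissue by genotype term in limma over the 16 arrays of each pair of tissues. The labels use the same mouse numbers in every tissue but do not say whether these are the same animals, and this model treats the arrays as independent. Of 42 such tests (7 genes, 6 pairs) 2 passed, both between Liver and eWAT, where 8.53% of all genes did. In the other pairs 0.118% (Liver and iWAT), 0.146% (Liver and BAT), 0.0243% (eWAT and iWAT), 5.98% (eWAT and BAT) and 0% (iWAT and BAT) of all genes passed. The change of *Lrp1* was 0.65 higher in Liver than in eWAT (SE 0.16, adjusted p = 0.0170) and passed in each of 20 alternatives, with adjusted p-values up to 0.0372. The change of *Gpihbp1* was 0.69 lower in Liver than in eWAT (SE 0.21, adjusted p = 0.0494), and 15 of 20 alternatives gave an adjusted p above 0.05, up to 0.0999. For *Lpl*, the change in iWAT exceeded that in BAT by 0.71 (SE 0.24, adjusted p = 0.376) and the change in eWAT exceeded that in BAT by 0.45 (SE 0.19, adjusted p = 0.197), neither of which passed. The fall of *Lrp1* in eWAT was not shown to differ from its values in iWAT (difference -0.60, SE 0.30, adjusted p = 0.544).

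Of 38 other genes of intravascular lipolysis, all measured, 11 passed in eWAT (4 higher and 7 lower in *Gpr146*-/- mice; 15.2% of all genes), 2 in Liver (both lower; 0.661% of all genes), and none in iWAT or BAT. Among the 12323 genes above the median gene of a tissue, fitted alone, 31.1% passed in eWAT and 2.04% in Liver. An unadjusted p under 0.05 (limma) was found for 13 of the 38 in Liver, 18 in eWAT, 4 in iWAT and 7 in BAT. Of all genes, dim ones included, 13.3%, 29.8%, 15.4% and 12.7% had such a p, in the same order. The median change of the 38 was 0.02 in eWAT and -0.02 in Liver, beside 0.03 and 0.01 for all genes. In eWAT, the receptors held 2 calls of 10, among them *Lrp2*, the megalin gene, which fell by 0.87 (SE 0.25, limma adjusted p = 0.0424; exact permutation test p = 0.114). WT mice gave 4.40, 4.34, 3.14 and 4.21 for *Lrp2* and knockout mice 3.05 to 3.22, so that WT mouse 3 lay within the knockout range. Of 3 mesothelial markers 2 fell in eWAT (*Upk3b* and *Msln*), and their mean was 6.53, 5.62, 4.80 and 5.46 in WT mice, again lowest in mouse 3, and 4.25 to 4.57 in knockout mice. Their part in the *Lrp2* values was not tested. Among cofactors and inhibitors 1 of 7 passed, *Apoc1*, which encodes an apolipoprotein that inhibits LPL and rose by 1.21 (SE 0.23, adjusted p = 0.0127). The LPL activator *Apoc2* (-0.39) and *Angptl8* (0.06), whose product takes part in the inhibition of LPL, did not pass.

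Of 3 related lipases only *Lipa*, encoding lysosomal acid lipase, passed, with a fall of 1.87 (SE 0.41, adjusted p = 0.0180). This enzyme acts inside the cell and is abundant in macrophages, whose 7 markers fell as given above; the part of these cells was not tested. In the maturation and transport group 3 of 6 passed: the cell surface proteoglycan gene *Sdc4* (-0.77, SE 0.16, adjusted p = 0.0164) and the proprotein convertase gene *Furin* (-0.49) fell, and the convertase gene *Pcsk6* rose (0.70, SE 0.18, adjusted p = 0.0329). *Sel1l*, which acts with *Lmf1* in the folding of LPL, differed by -0.38 (adjusted p = 0.0572). Of 4 heparan sulfate proteoglycan genes *Sdc1* (-0.52) and *Hspg2* (-0.35) fell, and of 8 transcription factors *Pparg* (0.61) and *Ppara* (0.49) rose.

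In Liver the fatty acid transporter gene *Cd36* fell by 1.74 (SE 0.25, adjusted p = 0.0144) and *Pcsk6* by 0.55 (SE 0.09, adjusted p = 0.0288), the latter opposite in sign to eWAT, a contrast that was not tested. In iWAT the smallest p-values belonged to *Lipa* (-0.88, adjusted p = 0.221), *Sel1l* (-0.51, adjusted p = 0.221) and *Sdc4* (-0.59, adjusted p = 0.234). In BAT they belonged to *Lipa* (-0.63, adjusted p = 0.104), *Rxra* (-0.53, adjusted p = 0.137) and *Nr1h3* (-0.41, adjusted p = 0.138). *Lipa* thus had a negative difference in each fat depot, with a call in eWAT only, and whether the depots differ in it was not tested. These counts depended on single arrays: with 1 array left out, 2 to 15 of the 38 passed in eWAT (2 without WT mouse 2, 15 without knockout mouse 2, 3 to 8 without any other mouse) and 0 to 5 in Liver (0 without WT mouse 3 or knockout mouse 4, 5 without knockout mouse 2). The share of all genes that passed moved as well. In eWAT it was 5.88% without WT mouse 2 and 22% without knockout mouse 2. In Liver it was 0.166% without WT mouse 3, 0.179% without knockout mouse 4 and 1.22% without knockout mouse 2.

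**Figure D4:**
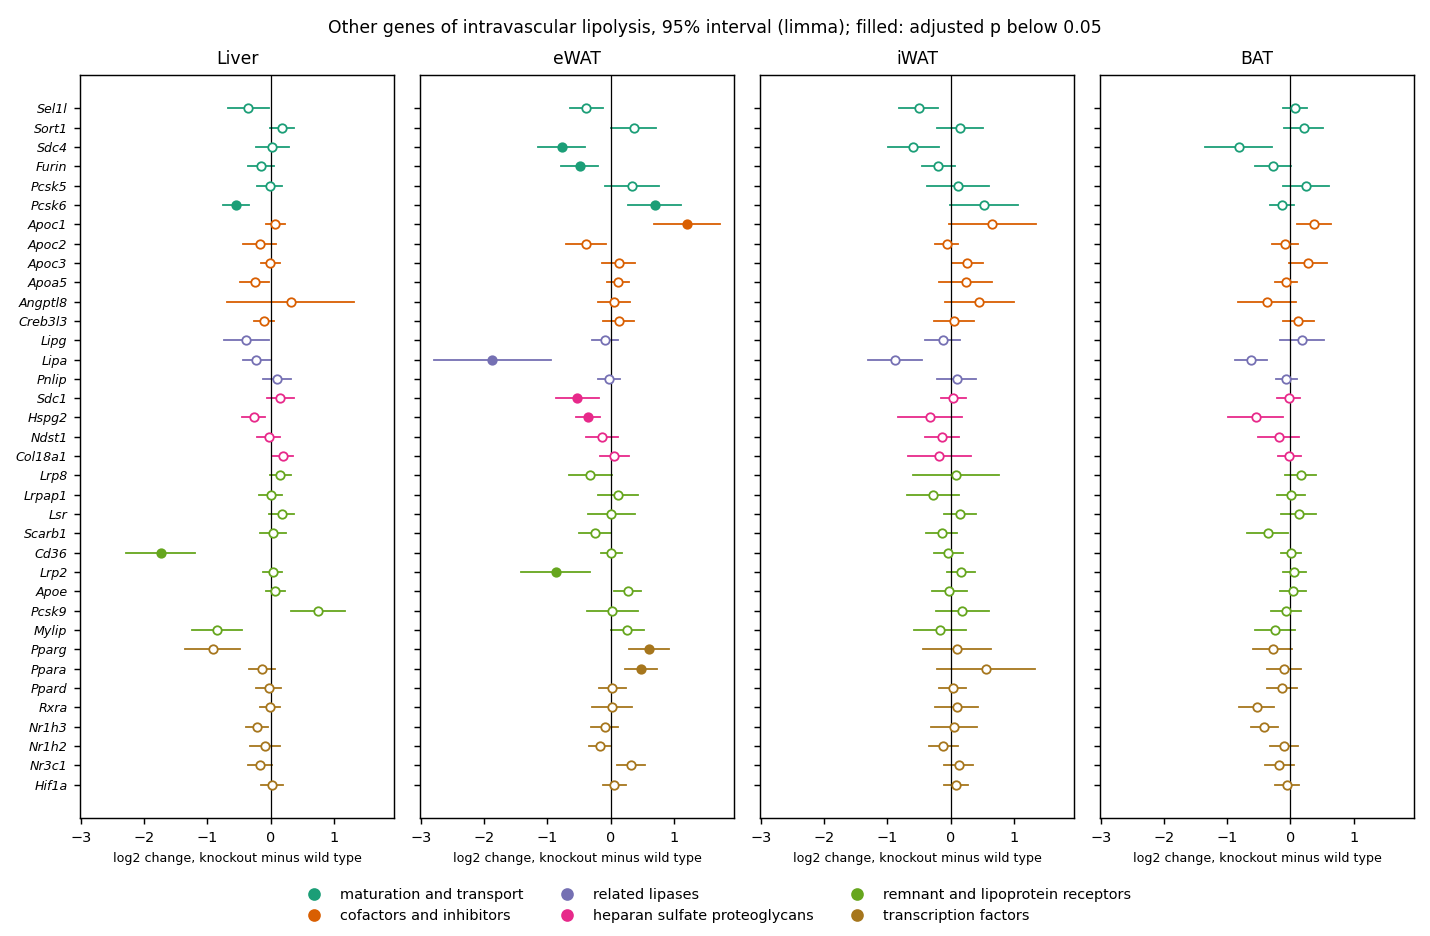
Log2 change (x axis, knockout minus WT, with 95% interval from limma, n = 4 mice per genotype) of 36 of the 38 other genes of intravascular lipolysis (y axis), coloured by group, in each tissue. Filled points passed an adjusted p of 0.05: 2 in Liver (*Pcsk6*, *Cd36*) and 10 of those shown in eWAT.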

How the data were processed

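For each tissue the authors deposited a table of log2 values, 1 entry per gene; the normalization, the software and the summary of probes are not given in the sources used here. Biotin-labelled cRNA was made from 100 ng of total RNA per array. Genotype and tissue came from the labels, and replicates are separate mice. The titles of the 4 knockout livers call them both KO and WT; their genotype, source and description fields say KO, which was used. Entries without a usable gene name (1 or 2 per table) were dropped. For 840 genes, none of the 7, the probe set number is not whole, as after averaging by the authors. limma 3.58.1 (R 4.3.3) was fitted per tissue over 24646 genes with Benjamini-Hochberg adjustment. Two-sided exact permutation tests used the 70 relabelings of 4 against 4. On data simulated for each tissue, log2 changes of 1 were found in 93% (Liver), 89% (eWAT), 79% (iWAT) and 90% (BAT) of 100 changed genes. The simulated noise was normal and independent between genes, and the differences of the 7 genes were smaller than 1. These shares therefore do not carry over to the 7 genes on the real arrays, where *Gpr146* itself did not pass in iWAT (-1.55) or BAT (-1.16). The 7 genes, the list of 38 and the marker lists were chosen with earlier results of these data known. All 7 are named in every tissue; of the 38, up to 6 with the largest called changes per tissue are named, or the 3 with the smallest p where none passed. *Furin*, *Sdc1*, *Hspg2*, *Pparg*, *Ppara*, *Sel1l* in eWAT, *Apoc2* and *Angptl8* were named after their values were seen. *Adgre1* and *Angptl8* are listed in the tables under the older names Emr1 and Gm6484. Some genes of the lists are counted but not reported by name here. Plots were drawn with matplotlib 3.10.9.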

Additional observations from a re-analysis of the deposited data

Results flagged for a closer look

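Among 56 groups of 4 mice (7 genes, 4 tissues, 2 genotypes), 2 held a mouse far from the other 3, where chance gives about 1 such group in 20. *Lrp1* in the eWAT of knockout mouse 2 was 9.36, against 8.84 to 8.88 in the other 3 knockout mice. *Vldlr* in the BAT of WT mouse 1 was 7.53, against 8.12 in each of the other 3 WT mice. The genotype difference of 2 genes differed between Liver and eWAT in a tissue by genotype test (limma, 16 arrays). For *Lrp1* the difference of changes was 0.65 (Liver 0.12, eWAT -0.54), and for *Gpihbp1* it was -0.69 (Liver -0.12, eWAT 0.57).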

How the results depend on the processing

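The alternatives were quantile normalization, equal array medians, dim genes left out, a trended and robust prior, array weights, the methods' t-test, a replicate block and each array left out in turn; arrays with high lymphocyte (iWAT) or skeletal muscle markers (BAT) left out, or these markers as a covariate, were chosen after seeing the data. With the methods' t-test unadjusted, 1 (Liver), 3 (eWAT), 1 (iWAT) and 2 (BAT) of the 7 genes passed, and 9, 15, 4 and 5 of the 38, beside 11.8%, 27.6%, 12.8% and 11.4% of all genes. With that t-test adjusted, 0 of the 7 passed in eWAT (*Lrp1* 0.0711, *Gpihbp1* 0.113) and 0 of the 38 in Liver and in eWAT (38 of all genes passed in eWAT). The labels do not state that mouse numbers pair the mice, and not every same-numbered pair correlated above 0.1 (correlations of deviations from the group means -0.06 to 0.11 in Liver, -0.00 to 0.16 in eWAT, -0.38 to 0.67 in iWAT, 0.01 to 0.22 in BAT; 3 of 4 above 0.1 in iWAT and in BAT; 2 or 3 of 4 mice per genotype were closest to their own number), so the block was not used in the reported values. With the replicate block, 1 of the 7 genes passed in eWAT (13.8% of all genes), since *Gpihbp1* had an adjusted p of 0.0767, and 1 between Liver and eWAT. No other count of the 7 genes moved. With 1 array left out, 0 to 3 of the 7 genes passed in eWAT (0 without WT mouse 2 or 4, 3 without knockout mouse 2), 0 to 1 in iWAT and 0 in Liver and BAT. Of all genes in eWAT, 5.88% passed without WT mouse 2, 6.73% without WT mouse 4 and 22% without knockout mouse 2. In iWAT 0.921% of all genes passed without knockout mouse 2. Of the 38, 0 to 5 passed in Liver and 2 to 15 in eWAT. Between tissues, 1 to 2 of the 7 genes passed (Liver and eWAT) or 0 to 1 (eWAT and BAT, iWAT and BAT).

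Reversed signs occurred only among differences that had not passed. Quantile normalization gave -0.038 for *Lipc* in eWAT, 0.052 for *Lmf1* in eWAT and -0.030 for *Lipc* in BAT, equal medians -0.0090 for *Lipc* in BAT, and array weights 0.031 for *Angptl4* in iWAT. The lymphocyte covariate gave -0.013 for *Gpihbp1*, -0.020 for *Vldlr* and -0.042 for *Lrp1* in iWAT. Leaving out marked arrays gave -0.076 for *Vldlr* and -0.28 for *Lrp1* in iWAT, and -0.036 for *Lipc* and 0.10 for *Vldlr* in BAT. With 1 array left out, ranges were -0.21 to 0.18 (*Lpl*, Liver), -0.021 to 0.053 (*Lipc*, eWAT), -0.21 to 0.0096 (*Lmf1*, eWAT), -0.043 to 0.32 (*Gpihbp1*, iWAT), -0.091 to 0.22 (*Vldlr*, iWAT), -0.11 to 0.27 (*Lrp1*, iWAT), -0.021 to 0.043 (*Lipc*, BAT) and -0.18 to 0.011 (*Vldlr*, BAT). The filter on dim genes removed *Lipc* in the fat depots and *Vldlr* in Liver, so no value is given there. The causes were not tested. The number of arrays limits the precision.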

Other observations

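Genes whose values across mice were most like those of each member were ranked by Pearson's r over the 8 arrays of a tissue after removal of the genotype means, averaged over the tissues in which both genes lay above the median gene (9783 genes in all 4 tissues). These are descriptions without a test, and the arrays share whatever separates single mice, such as the lymphocyte and muscle markers given above. *Gpihbp1* was most like *Robo4*, which encodes an endothelial receptor, with a mean r of 0.71 (0.56 to 0.90 by tissue). *Lmf1* was most like *Mdh2* (0.86) and *Hadh* (0.83), which encode mitochondrial enzymes of the citric acid cycle and of fatty acid oxidation, and *Bsg* (0.83). *Lpl* was most like *Emp2* (0.74), *Gpt2* (0.74) and *Trove2* (0.73). *Lrp1* was most like *Mfsd11* (0.77), *Qsox1* (0.75) and *Ifnar2* (0.75), and *Angptl4* like *Bend3* (0.75), *Sipa1l1* (0.75) and *Mapre3* (0.73). After *Robo4*, *Gpihbp1* was followed by *Cox19* (0.69). *Vldlr*, over the 3 fat depots, was most like *Yipf3* (0.86), *1110008F13Rik* (0.84) and *Chst11* (0.83). *Lipc*, which lay above the median only in Liver, was most like *Ntpcr* (0.99), *Cyp2c44* and *Pibf1* (0.98 each), over 8 arrays of 1 tissue.

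Among the members themselves, *Lpl* and *Vldlr* had a positive r in each tissue once genotype means were removed (0.33 to 0.52, 8 arrays each), as did *Lmf1* and *Vldlr* (0.06 to 0.70), *Lmf1* and *Lrp1* (0.01 to 0.83) and *Angptl4* and *Lrp1* (0.08 to 0.68). These pairs were picked for that sign from all pairs of members, without a test. For *Lmf1* and *Lrp1*, r was near 0 in Liver (0.01) and eWAT (0.02). The highest r of each pair was that of iWAT, where lymphocyte markers set arrays apart. The r of *Gpihbp1* and *Lpl* was 0.83 in iWAT and -0.17 in BAT, and that of *Gpihbp1* and *Lrp1* ranged from -0.86 to 0.79.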
